A study of Mus musculus with 18 samples.

Results

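The 9 libraries described here come from the kidneys of sham-operated mice, and the comparison sets the 3 libraries of day 1 after the operation against the 6 libraries of days 3 and 21 as 1 set. They are 9 of 18 libraries in an RNA sequencing study of unilateral ischemia and reperfusion (UIR), an injury model in which the vessels of 1 kidney are clamped and then released, and their group labels alone chose them. Sham day 1, sham day 3 and sham day 21 hold 3 biological replicates each, from C57BL/6 mice of 11 weeks, with no genetic change or drug named. All were operated under isoflurane on a warming pad. The 3 libraries of UIR day 1, from mice whose right renal pedicle was clamped for 45 minutes with the left kidney untouched, are used only to set levels beside those of the sham kidneys. Which kidney was sequenced, the sex, what the sham operation involved, feeding and the hour of death are absent from the labels, and no unoperated mice are analysed here. Anesthesia, the operation, food intake and the time since the operation therefore cannot be told apart in this comparison. Of 20825 genes in the table, 14716 reached at least 1 FPKM (read fragments counted on a gene, corrected for its length and for library size) in at least 3 of the 18 libraries and were tested.

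Abdominal surgery and anesthesia are known to set off a response of the whole body, even where no vessel is clamped. Cytokines such as interleukin-6 act through the transcription factor STAT3 to raise acute-phase proteins, glucocorticoids from the adrenal gland act through their nuclear receptor, and low food intake releases fatty acids, which activate the nuclear receptor PPAR alpha and through it fat oxidation and ketone synthesis. Most of the kidney cortex is proximal tubule, which reabsorbs filtered solutes, burns fatty acids, and on damage switches on genes such as Havcr1 (kidney injury molecule 1) and Lcn2 (neutrophil gelatinase-associated lipocalin).

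Kidneys of sham day 1 differed from later sham kidneys in a large part of the expressed genes. Of the 14716 genes, 6783 (46.1%) passed an adjusted p of 0.05 in limma with Benjamini-Hochberg adjustment, 4701 of them higher (31.9% of genes tested) and 2082 lower (14.1%) in sham day 1. At least 2-fold changes on the log2(FPKM + 1) scale numbered 648 higher and 333 lower. All 3 day 1 values lay above or below all 6 later values for 6045 genes (41.1%). The median log2 fold of all genes was 0.11, so members of a group are read against that shift. Higher genes made up 69.3% of calls on the deposited values and 76.1% in TPM (FPKM rescaled to a fixed sum per library), but 49.3% after median-of-ratios scaling and 47.6% after quantile normalization, which centre all genes, so the balance of higher and lower calls depends on the scaling.

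Each later day was also taken alone as the control. Against sham day 3, 6258 genes passed (42.5%), and against sham day 21, 5804 (39.4%). Sham day 21 against sham day 3 gave 5 genes (0.034%), with 2284 at an unadjusted p under 0.05. On the first principal component of the 9 sham libraries, which held 66.4% of the variance, the day 1 libraries scored 51.8, 37.6 and 49.1 and the later ones between -25.4 and -19.4. Pearson correlations of log2(FPKM + 1) across genes within 1 library pair ran from 0.987 to 0.993 among day 1 libraries, from 0.946 to 0.964 between day 1 and later ones, and from 0.982 to 0.990 between day 3 and day 21. Genes are not independent replicates, so these values only describe the libraries. On the second component (9.9%) day 3 replicate 2 stood apart at 29.1, with the other 8 libraries between -14.9 and 10.2. The list of the unfolded protein response and that of clock genes are given with and without it. The same holds for Calr, Pdia3, Cry1, Dbp, Arntl and Nr1d1, but not for every gene in which it stood apart. Day 1 replicate 2 was the day 1 library nearest to later sham in 675 of the 981 genes that changed at least 2-fold (68.8%).

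**Figure D1:**
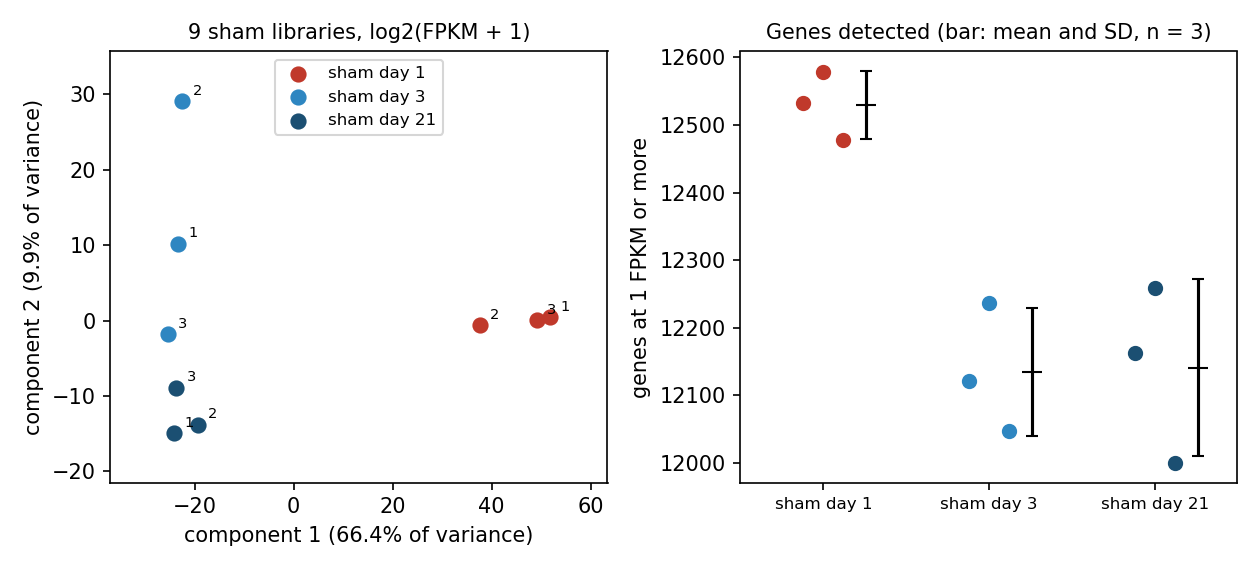
Left, the first against the second principal component of log2(FPKM + 1) for the 9 sham libraries, with replicate numbers beside the points. Right, how many genes reached 1 FPKM in each library, with the mean and SD of 3 libraries as bars on an axis that does not start at 0. The 3 day 1 libraries stand apart on component 1 and hold 12478 to 12578 such genes, against 12000 to 12259 in the later sham libraries.

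More genes were detected on day 1. Genes at 1 FPKM or more numbered 12530 ± 50 in sham day 1 (SD, n = 3) and 12138 ± 102 in later sham (SD, n = 6), a difference larger than the spread (two-sided exact permutation p = 0.024, the smallest that 3 against 6 libraries can give). The 10 most abundant genes took 16.1% ± 0.59 of the FPKM sum in sham day 1 (SD, n = 3) and 18.4% ± 0.75 in later sham (SD, n = 6), with the same exact permutation p. Read depth is unknown, since only FPKM values are analysed here, and in bulk tissue fewer cells of a type cannot be told apart from less RNA per cell. The tissue label fits its defining markers in all 9 libraries, with Kap, an androgen-induced proximal tubule protein, between 18131 and 51258 FPKM, and Umod, the thick ascending limb protein uromodulin, between 552 and 932 FPKM.

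The largest increases were in fibrinogen, lipocalin and fat metabolism genes. Fgg, the gamma chain of the clotting protein fibrinogen, stood at 487, 199 and 297 FPKM in the 3 sham day 1 kidneys, against 3.03 to 6.93 FPKM (median 4.49) in the 6 later ones. Its log2 fold was 5.84 ± 0.40 (SE, limma adjusted p = 1.9e-08), the largest by the rule used to name genes. Fga, the alpha chain, had 534, 213 and 313 FPKM on day 1, against 6.83 to 10.6 FPKM (median 8.62) later (log2 fold 5.10 ± 0.41), and the beta chain Fgb had 119, 30.9 and 52.8 FPKM, against 0.37 to 2.59 FPKM (median 0.94) (log2 fold 4.87 ± 0.52). In each chain replicate 2 was the lowest day 1 library, and, as the naming rule required, no day 1 value overlapped the later range. Lcn2, which binds bacterial iron carriers and is shed by stressed tubules, had 188, 102 and 216 FPKM on day 1, against 1.08 to 4.25 FPKM (median 2.29) later (log2 fold 5.59 ± 0.33, limma adjusted p = 4.2e-09).

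Genes of fat and fuel handling were also among the 12 largest increases. Pdk4, the kinase that shuts off pyruvate dehydrogenase and so spares glucose, had 262, 171 and 291 FPKM in sham day 1, against 2.73 to 8.13 FPKM (median 4.83) in later sham (log2 fold 5.36 ± 0.25). Plin2, a coat protein of lipid droplets, had 1614, 859 and 1499.9 FPKM, against 40.8 to 52.8 FPKM (median 48.0) (log2 fold 4.72 ± 0.16). In both genes the lowest day 1 library lay above the highest later one, as the naming rule required. Cyp4a14, a fatty acid omega-hydroxylase and PPAR alpha target, also belonged here (log2 fold 4.13 ± 0.39), but its later values were split by day and are given further on. Other large increases were Sprr1a, a cornified envelope protein of stressed epithelia (4.58), Hmox1, the heme-degrading oxygenase (4.04), Saa1, the acute-phase serum amyloid A (4.04), and Lrg1, a leucine-rich acute-phase glycoprotein (4.02).

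Among the 12 largest decreases most were enzymes and carriers. Gatm, the first enzyme of creatine synthesis, had 23.7, 66.5 and 23.4 FPKM in sham day 1, against 254 to 466 FPKM (median 334) in later sham (log2 fold -3.29 ± 0.38, limma adjusted p = 4.3e-06). Hsd3b2, a 3-beta-hydroxysteroid dehydrogenase, had 2.70, 12.5 and 3.31 FPKM, against 103 to 138 FPKM (median 118) (log2 fold -4.33 ± 0.48). Acmsd, which diverts tryptophan breakdown away from NAD synthesis, had 5.02, 7.14 and 5.41 FPKM, against 54.8 to 77.3 FPKM (median 66.5) (log2 fold -3.27 ± 0.38). Replicate 2 was again the day 1 library nearest to the later range in these 3 genes. Also lower were the peroxisomal oxidase Hao2 (-3.22), Hsd3b4 (-3.12), the amino acid carrier Slc7a13 (-2.87), the isoprenoid enzyme Idi1 (-2.83), the growth-arrest gene Gas2 (-2.79), Smcp, known as a sperm mitochondrial protein (-2.78), the organic anion carrier Slc22a22 (-2.74) and the succinate receptor Sucnr1 (-2.69). Hsd3b2 and Hsd3b4 are near-identical copies, as are members of the Saa and Cyp4a families, and reads may have been divided between copies, so their single-gene values are uncertain.

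**Figure D2:**
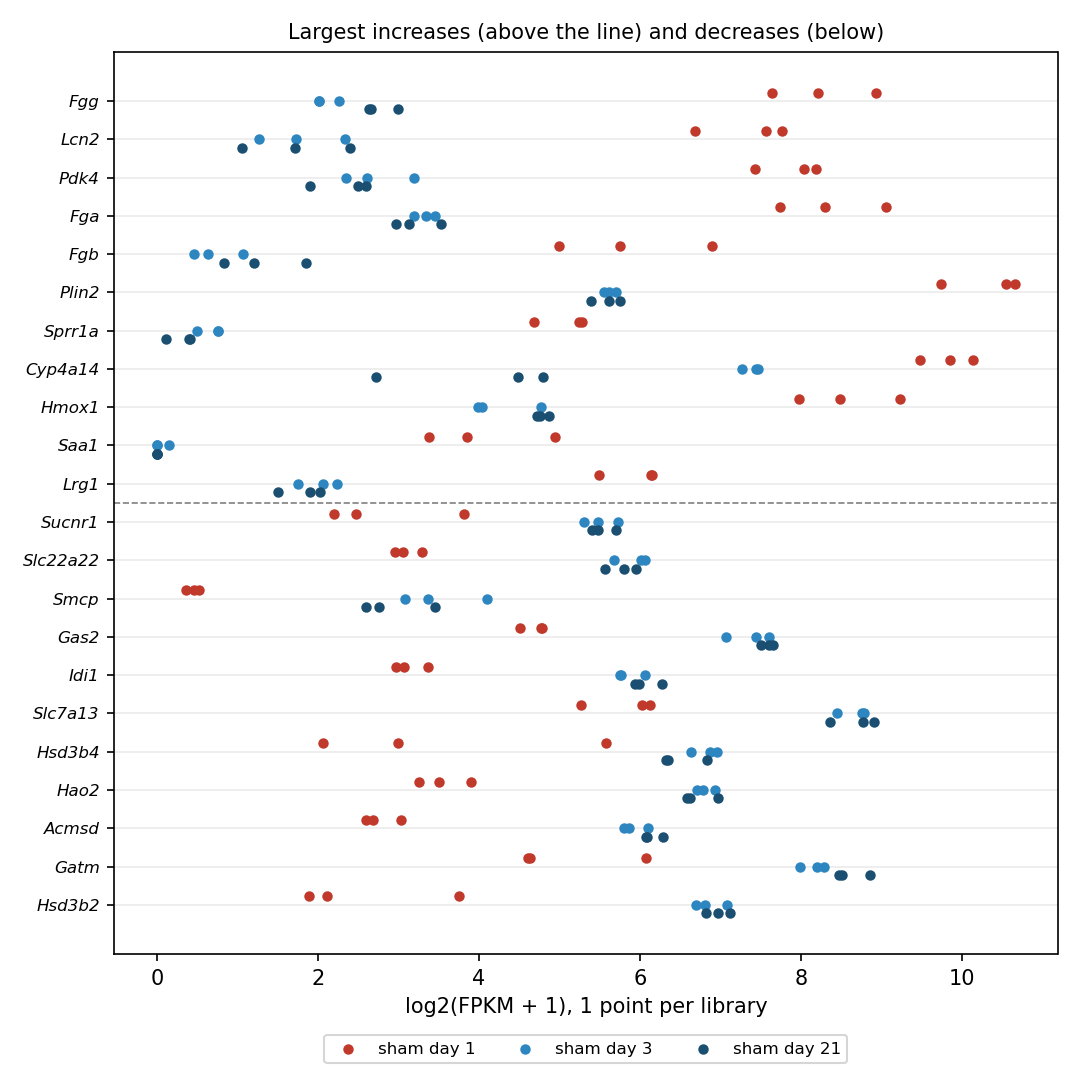
Log2(FPKM + 1) in each of the 9 sham libraries for 11 of the 12 genes with the largest increases and 11 of the 12 with the largest decreases in sham day 1 against later sham. Day 1 points lie right of all later points above the dashed line and left of them below it, as the naming rule required, and Cyp4a14 is the gene whose day 3 and day 21 points are farthest apart.

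Most PPAR alpha targets were higher in sham day 1. Of 36 tested targets, 31 were higher and 2 lower (median log2 fold 1.33), against 31.9% higher and 14.1% lower over all genes. Besides Pdk4, Plin2 and Cyp4a14, the hormone Fgf21, a fasting signal best known from liver, had 4.88, 14.5 and 4.05 FPKM in sham day 1 and was listed at 0 in all 6 later libraries. The targets that fell were Cyp4a12a (-1.43), which is also androgen-dependent, and the aldehyde dehydrogenase Aldh3a2 (-0.31). The Aldh3a2 call was lost without day 1 replicate 1 or 3 (-0.29 to -0.28, limma adjusted p = 0.075 to 0.088), and against sham day 3 alone (-0.11, limma adjusted p = 0.48) and in 3 other alternatives.

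Fatty acid oxidation enzymes followed in part. Of 28 tested, 18 were higher and 5 lower (median 0.51). The peroxisomal enzymes Ehhadh (1.73) and Acaa1b (1.72), the carnitine-acylcarnitine carrier Slc25a20 (1.41) and the mitochondrial isomerase Eci1 (1.37) led the increases. Ehhadh had 1008, 812 and 1058 FPKM in sham day 1, against 249.5 to 328 FPKM (median 290.4) in later sham. Acsm2, a medium-chain acyl-CoA synthetase (-1.02), Acat1 of ketone and isoleucine breakdown (-0.69), Etfa, which passes electrons from fat oxidation on (-0.44), Acads, the short-chain dehydrogenase (-0.26), and Echs1, the enoyl-CoA hydratase named after its value was seen (-0.23), were lower. The Acsm2 call was lost without day 1 replicate 1, 2 or 3, day 3 replicate 3 or day 21 replicate 1 (-1.08 to -0.93, limma adjusted p = 0.051 to 0.099), and after quantile normalization (-0.87, limma adjusted p = 0.11) and in 3 other alternatives, and the Acads call lost without day 1 replicate 1 or 2 (-0.25 to -0.23, limma adjusted p = 0.07 to 0.083), and against sham day 3 alone (-0.19, limma adjusted p = 0.14) and in 2 other alternatives. The count of lower members was 2 without day 1 replicate 1 and 3 without day 1 replicate 2.

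Glucose-making enzymes moved in opposite directions. Pck1, which commits carbon to glucose synthesis, had 2441, 2029 and 2636 FPKM in sham day 1, against 260.4 to 827 FPKM (median 677) in later sham (log2 fold 2.04 ± 0.36, limma adjusted p = 0.00024). G6pc, the last enzyme of the path, had 44.7, 30.4 and 44.0 FPKM, against 158 to 316 FPKM (median 189) (log2 fold -2.36 ± 0.34, limma adjusted p = 3.6e-05). Neither gene's groups overlapped, so both ends of the same path changed and in opposite directions. The glutamine carrier Slc38a3 (2.21) and the glutamate dehydrogenase Glud1 (1.64), which feed ammonia and glucose synthesis, rose, while fructose bisphosphatase Fbp1 (-1.12) fell, a call lost without day 1 replicate 1, 2 or 3, day 3 replicate 1, 2 or 3 or day 21 replicate 1 or 3 (-1.16 to -1.08, limma adjusted p = 0.05 to 0.1), and after quantile normalization (-1.03, limma adjusted p = 0.096) and in 5 other alternatives. Of 15 gluconeogenesis and glucose transport genes, 6 were higher and 5 lower (median -0.10), with 3 lower without day 1 replicate 1, day 1 replicate 3 or day 21 replicate 3. Fasting and FoxO targets counted 11 higher and 2 lower of 21 (median 0.45; 9 higher and 4 lower after median-of-ratios scaling), with the mitophagy receptor Bnip3 (1.44), the insulin-like growth factor binding protein Igfbp1 (1.40) and the stress gene Gadd45a (1.17) up, and the muscle ubiquitin ligase Trim63 (-1.53) down. Ppargc1a, the mitochondrial coactivator, was at 12.1 ± 3.37 FPKM on day 1 and 13.2 ± 1.53 later and did not pass (limma adjusted p = 0.47).

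Genes of sterol synthesis and oxidative metabolism were mostly lower. Of 26 cholesterol synthesis and uptake genes, 15 were lower and 1 higher (median -0.37). Idi1 had 6.83, 9.30 and 7.42 FPKM in sham day 1, against 52.9 to 76.5 FPKM (median 61.6) in later sham, and the sterol demethylase Cyp51 (-1.52) and the dehydrogenase Nsdhl (-1.30) also fell. Fdft1, squalene synthase, was the member that rose (0.36), a call lost without day 1 replicate 1 or 3, day 3 replicate 1 or 3 or day 21 replicate 1 or 3 (0.29 to 0.36, limma adjusted p = 0.066 to 0.17), and against sham day 3 alone (0.10, limma adjusted p = 0.64) and in 6 other alternatives. A sterol response motif, TCACNCCAC on either strand, was found in 1 of 18 promoters of the list (5.56%, that of Hmgcs1) and in 1.43% of 11448 promoters of tested genes. Tricarboxylic acid cycle and respiratory chain genes were lower in 28 and higher in 0 of 36 (median -0.36). Their folds were small, the largest in the complex I subunit Ndufs1 (-0.82), the succinyl-CoA ligase Sucla2 (-0.68), the oxoglutarate dehydrogenase Ogdh (-0.65) and the isocitrate dehydrogenase Idh2 (-0.64). Fatty acid and triglyceride synthesis genes split evenly, 6 higher and 6 lower of 19 (5 and 9 after median-of-ratios scaling), with the acyltransferases Gpam (1.16) and Dgat2 (0.87) up and the desaturases Scd1 (-1.12) and Fads2 (-0.91) down. The share higher was near the 31.9% of all genes, and the share lower was above their 14.1%.

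Genes of amino acid breakdown and NAD synthesis were mostly lower. Of 31 amino acid catabolism genes, 21 were lower and 2 higher (median -0.65). Aldh4a1, a proline pathway enzyme, had 55.8, 67.0 and 61.0 FPKM in sham day 1, against 142 to 174 FPKM (median 169) in later sham (log2 fold -1.41 ± 0.14), and the transsulfuration enzyme Cbs (-1.32) was lower as well. Gldc, the glycine decarboxylase, rose (1.32), as did Hpd of tyrosine breakdown (0.66), a call lost without day 1 replicate 1 or 3 (0.61 to 0.64, limma adjusted p = 0.073 to 0.085), and against sham day 3 alone (0.42, limma adjusted p = 0.21) and in 5 other alternatives. The list of NAD synthesis from tryptophan had 8 of 14 genes lower and 1 higher (median -0.48). It counts Acmsd among the lower genes, although Acmsd diverts away from that synthesis. Beside Acmsd, the aminotransferase Aadat (-1.51), the oxygenase Haao (-1.04) and the phosphoribosyltransferase Qprt (-0.94) fell. The member that rose was Nampt of the NAD salvage path (0.77). Glycolysis and lactate genes were divided, 6 higher and 5 lower of 21 (median 0.11, -0.05 after median-of-ratios scaling). All genes had 31.9% higher, 14.1% lower and a median of 0.11 on the deposited values, so the share higher and the median were near those of all genes.

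**Figure D3:**
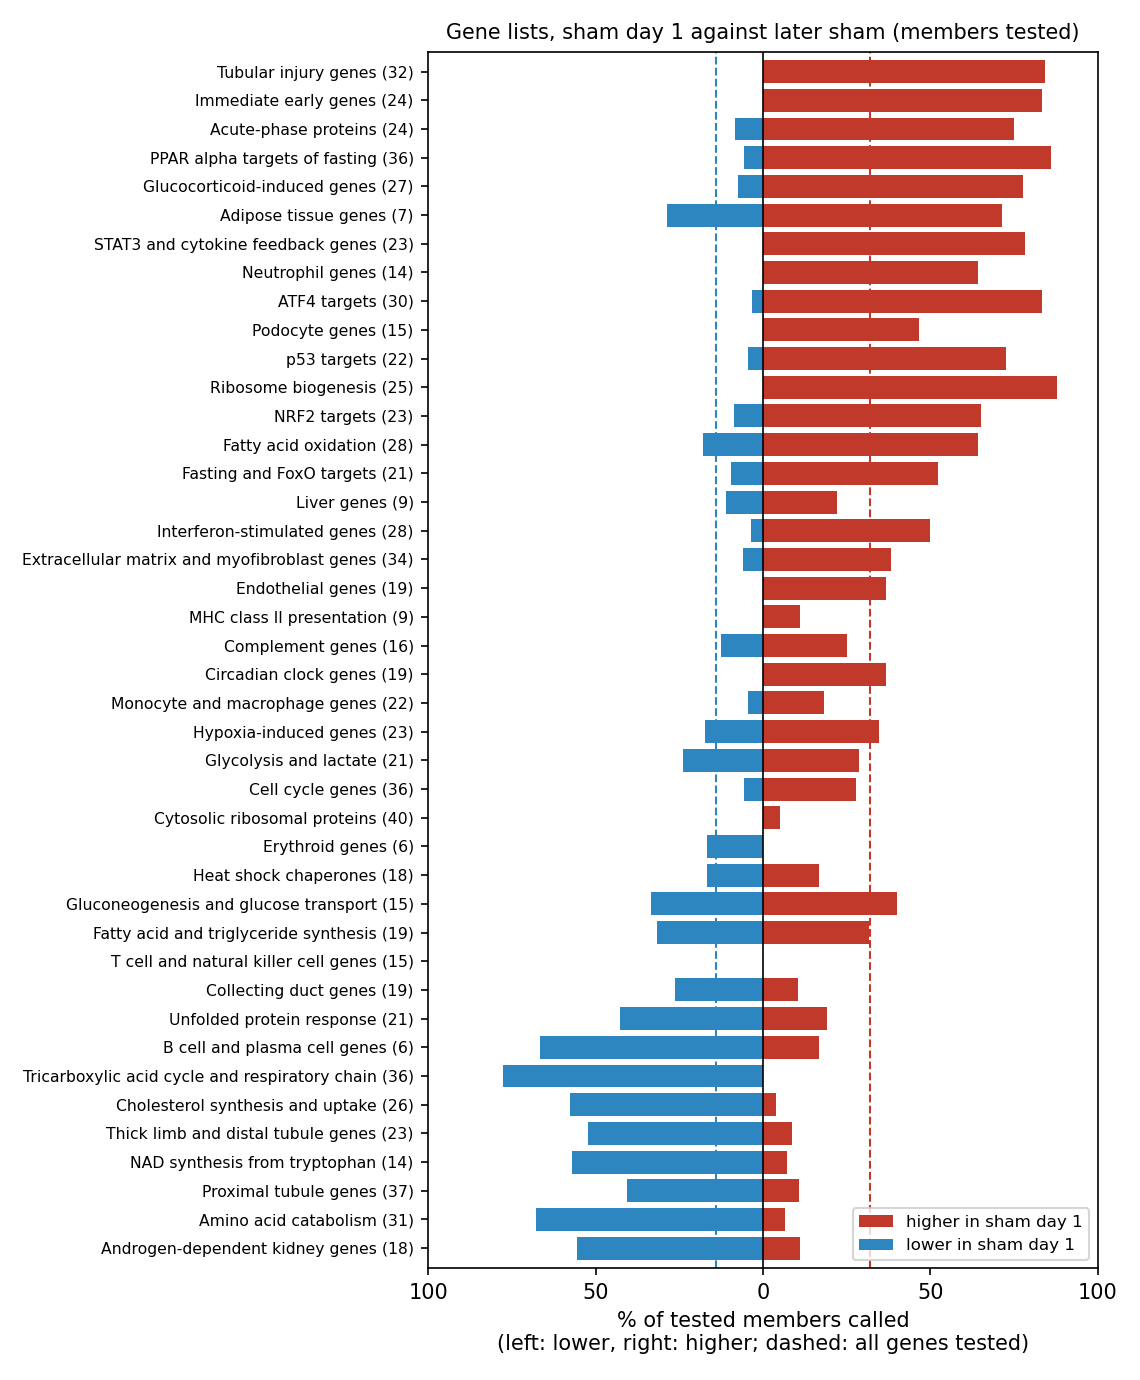
The percentage of tested members of each gene list that passed an adjusted p of 0.05 higher (right) or lower (left) in sham day 1 against later sham, with the number tested in brackets and lists of fewer than 6 tested members left out. Dashed lines mark 31.9% and 14.1% for all genes, and lists are ordered by median log2 fold, with tubular injury genes on top (27 of 32 higher) and androgen-dependent genes at the bottom (10 of 18 lower).

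Acute-phase protein genes, best known from the liver, were mostly higher. Of 24 tested, 18 were higher and 2 lower in sham day 1 (median 1.40). The count higher was 22 with a pseudocount of 0.1 and 16 with a pseudocount of 5, with 2 lower in both. Fibrinogen chains and Lcn2 led, followed by Saa1. Saa1 had 29.8, 9.43 and 13.5 FPKM in sham day 1, whereas later sham held 0.11 FPKM in day 3 replicate 1 and 0 in the other 5 libraries. It passed the filter through the sham day 1 libraries alone, so its split from later sham gives no support. Orm1, Orm2, Orm3, Crp and Serpina3m did not reach the filter, with 0.34 FPKM or less in every sham library. C3, the central complement protein, had 90.8, 83.3 and 66.2 FPKM, against 2.74 to 6.56 FPKM (median 3.96) (log2 fold 3.91 ± 0.19, limma adjusted p = 6.2e-10). The complement factor Cfb (-0.69) and the pentraxin Apcs (-0.94) fell. Albumin (Alb) was at 2.25 ± 0.46 FPKM in sham day 1 and 2.72 ± 0.73 FPKM in later sham, and Ahsg, another liver plasma protein, at 0.06, 0 and 0 FPKM in sham day 1 and at 0 in all 6 later libraries. Of 9 tested liver genes, the fatty acid binding protein Fabp1 (1.52), also a PPAR alpha target, and Apoa1 (1.43) were higher and the thyroxine carrier Ttr (-0.98) was lower, a call lost without day 1 replicate 1, 2 or 3, day 3 replicate 3 or day 21 replicate 3 (-1.07 to -0.74, limma adjusted p = 0.051 to 0.11), and against sham day 21 alone (-0.95, limma adjusted p = 0.07) and in 2 other alternatives. The list summed to 79.0 to 108 FPKM on day 1 and 60.6 to 168 FPKM later, and a part of liver RNA in the result was not tested.

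STAT3 and cytokine feedback genes rose with them, 18 higher and 0 lower of 23 (median 1.03). Bcl3, a partner of NF-kappaB (1.89), and Junb, a subunit of AP-1 (1.95), were higher, and the cytokine Lif, which signals through STAT3, had 9.83, 2.52 and 9.82 FPKM in sham day 1, against 0.10 to 0.38 FPKM (median 0.16) in later sham (log2 fold 2.65 ± 0.39). Socs3, the feedback inhibitor that STAT3 induces, had 12.4, 4.83 and 15.1 FPKM, against 0.69 to 1.56 FPKM (median 1.09) (log2 fold 2.40 ± 0.25). In both genes day 1 replicate 2 was lowest but stayed above the later libraries. The Fga promoter is shown since Fga was among the largest increases and its upstream sequence holds the STAT motif TTCCNGGAA. From the RefSeq table for GRCm38.p6 (the deposited values name mm9), the stretch chr3:83025903-83025953 on the plus strand reads as follows, 5′ to 3′, with the motif in capitals, 234 bases before the gene start.
Fga: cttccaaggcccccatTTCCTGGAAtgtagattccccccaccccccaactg
Searched on both strands from 250 bases before to 50 bases after each gene start, that motif was found in 3 of 20 acute-phase promoters (15.0%, Fga, Steap4 and Pigr), in 1 of 19 STAT3 feedback promoters (5.26%, Cish) and in 1.52% of 11448 promoters of tested genes. Of these genes, named for the motif, Steap4 (0.41) and Cish (0.00) did not pass the test, while Pigr rose (1.15). A match is a sequence description and says nothing of binding.

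Targets of the transcription factor ATF4, which answers amino acid shortage and other stress, were higher in 25 and lower in 1 of 30 cases (median 0.90). Gdf15, a secreted stress hormone, had 97.1, 127 and 135 FPKM in sham day 1, against 5.32 to 8.91 FPKM (median 6.34) in later sham (log2 fold 3.96 ± 0.21). Chac1, which degrades glutathione, had 10.0, 11.8 and 8.53 FPKM, against 0.29 to 0.61 FPKM (median 0.40) (log2 fold 2.97 ± 0.11, limma adjusted p = 9.5e-11). Psat1 of serine synthesis had 124, 103 and 111 FPKM, against 11.6 to 21.8 FPKM (median 15.4) (log2 fold 2.81 ± 0.14). For these 3 genes day 1 replicate 2 lay within or close to the range of the other day 1 replicates, unlike the fibrinogen chains. Shmt2, the mitochondrial serine hydroxymethyltransferase, was the target that fell (-0.47), a call lost without day 1 replicate 1 (-0.38, limma adjusted p = 0.05).

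The amino acid response element TGATGNAA, the motif that ATF4 is known to bind, was found on either strand in 10 of 25 promoters of ATF4 targets (40%) and in 2.85% of the 11448 promoters. The list was made of genes known as ATF4 targets, so its larger share is no independent support. These 4 stretches are shown because they carry the motif in genes that rose, Asns, asparagine synthetase, by 2.2 and Nupr1, a stress-induced chromatin protein, by 1.96 on the log2 scale. They are from the same RefSeq table (GRCm38.p6), 5′ to 3′ along the gene, with the motif or its reverse complement in capitals. Chac1 lies at chr2:119351023-119351082 on the plus strand, and Fgf21 at chr7:45615596-45615655, Nupr1 at chr7:126625547-126625606 and Asns at chr6:7693210-7693258 on the minus strand.
Chac1: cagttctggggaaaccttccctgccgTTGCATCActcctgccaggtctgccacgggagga
Fgf21: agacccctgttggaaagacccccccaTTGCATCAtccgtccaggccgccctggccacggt
Nupr1: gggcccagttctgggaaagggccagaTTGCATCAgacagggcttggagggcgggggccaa
Asns: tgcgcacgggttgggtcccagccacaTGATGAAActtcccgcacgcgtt
The matches start 193, 139, 110 and 23 bases before the gene start, in that order of genes. Chac1, Fgf21 and Nupr1 share the 8 letters TTGCATCA. Of the other promoters with a match, named for the motif, those of Trib3 (2.17), Gars (0.87), Aars (0.55) and Pycr1 (0.47) belong to genes that rose, and those of Slc7a11 (0.06) and Vldlr (-0.22) to genes that did not pass.

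Endoplasmic reticulum and heat shock chaperones were divided. Genes of the unfolded protein response were lower in 9 and higher in 4 of 21 (median -0.29), with the lectin chaperone Calr (-1.15) and the disulfide isomerase Pdia3 (-0.88) down and the transcription factor Xbp1 (1.12), the cochaperone Dnajb9 (0.92), the sensor Atf6 (0.60) and the degradation factor Derl3 (0.71) up. The Derl3 call was lost without day 1 replicate 1 or 2, day 3 replicate 1 or 3 or day 21 replicate 1 (0.47 to 0.77, limma adjusted p = 0.052 to 0.17), and against sham day 3 alone (0.53, limma adjusted p = 0.15) and in 3 other alternatives. Calr had 263, 279.7 and 226 FPKM in sham day 1, 587, 1007 and 497 in sham day 3 and 466, 444 and 553 in sham day 21, so day 3 replicate 2 stood above the other later libraries. Without that library the median of the list was -0.10, with 9 members lower and 4 higher as before, and Calr (-1.0) and Pdia3 (-0.78) still passed. Heat shock chaperones had 3 higher and 3 lower of 18 (median -0.02, 0.04 in TPM). The share higher was below the 31.9% of all genes, and the share lower was near their 14.1%. The small heat shock protein Hspb1 had 72.2, 37.2 and 60.0 FPKM, against 4.18 to 13.3 FPKM (median 5.87) (log2 fold 2.92 ± 0.27), and its relative Hspb8 (1.59) and the cochaperone Bag3 (0.80) rose. The HSP40 protein Dnaja1 (-0.86), the mitochondrial Hspe1 (-0.83) and the cochaperone Fkbp4 (-0.46) fell, the Hspe1 call being lost against sham day 21 alone (-0.61, limma adjusted p = 0.064) and the Fkbp4 call lost without day 1 replicate 3 (-0.37, limma adjusted p = 0.055), and against sham day 21 alone (-0.36, limma adjusted p = 0.059). Hspa1a (0.39) and Hspa1b (0.54), the inducible HSP70 pair of near-identical genes, named after their values were seen, did not pass.

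Targets of NRF2, the sensor of oxidative stress, were higher in 15 and lower in 2 of 23 (median 0.53). Hmox1 had 603, 251 and 358 FPKM in sham day 1, against 14.9 to 28.2 FPKM (median 25.6) in later sham, and the carbonyl reductase Cbr3 (3.27) and the sulfiredoxin Srxn1 (1.92) followed, while the carboxylesterase Ces1g (-1.28) and malic enzyme Me1 (-0.76) fell. The Ces1g call was lost against sham day 3 alone (-0.46, limma adjusted p = 0.35) and in 1 other alternative. p53 targets were higher in 16 and lower in 1 of 22 (median 0.54). Cdkn1a, the p21 inhibitor of the cell cycle, had 64.2, 29.6 and 69.6 FPKM, against 2.94 to 5.21 FPKM (median 3.67) (log2 fold 3.45 ± 0.22), and Btg2 (2.52) and Phlda3 (1.41) rose too. The target that fell was the ribonucleotide reductase subunit Rrm2b (-0.34), a call lost without day 1 replicate 1 or 3 (-0.32, limma adjusted p = 0.068 to 0.069), and in TPM (-0.31, limma adjusted p = 0.067) and in 1 other alternative. Cdkn1a and Gdf15 are also targets of other pathways listed here. Hypoxia-induced genes had 8 higher and 4 lower of 23 (median 0.18), with the vasodilator peptide Adm up (1.81) and the carbonic anhydrase Car9 down (-1.16). Both shares were near the 31.9% higher and 14.1% lower of all genes.

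Most genes of tubular injury were higher in sham day 1. Of 32 tested, 27 were higher and 0 lower (median 1.75). Havcr1 had 47.3, 18.5 and 26.8 FPKM in sham day 1, against 0.56 to 5.54 FPKM (median 0.71) in later sham (log2 fold 3.65 ± 0.49, limma adjusted p = 1.9e-05). Krt20, a keratin of stressed tubules, had 19.5, 5.96 and 27.4 FPKM, against 0.16 to 1.43 FPKM (median 0.49) (log2 fold 3.32 ± 0.34). Sprr1a had 37.0, 24.8 and 37.9 FPKM, against 0.08 to 0.69 FPKM (median 0.37). For Havcr1 the lowest day 1 library lay above the highest later one, day 3 replicate 2 at 5.54 FPKM, and the median of later sham was below 1 FPKM. Immediate early genes, the first transcribed after a stimulus, were higher in 20 and lower in 0 of 24 (median 1.46). Myc, the growth regulator, had 28.7, 39.7 and 32.4 FPKM, against 1.01 to 8.42 FPKM (median 1.90) (log2 fold 3.37 ± 0.33), and Atf3 (3.00), Maff (2.92) and Btg2 (2.52) rose. In Myc, unlike the injury genes above, day 1 replicate 2 was the highest of the 3 day 1 libraries.

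Glucocorticoid-induced genes were higher in 21 and lower in 2 of 27 (median 1.22). Fkbp5, a cochaperone of the glucocorticoid receptor, had 68.7, 38.6 and 78.0 FPKM in sham day 1, against 19.5 to 33.1 FPKM (median 21.7) in later sham (log2 fold 1.30 ± 0.18, limma adjusted p = 3e-05). Tsc22d3, the leucine zipper protein GILZ, had 19.2, 15.9 and 20.3 FPKM, against 11.4 to 20.7 FPKM (median 17.7), and did not pass (log2 fold 0.11 ± 0.16, limma adjusted p = 0.62). Angptl4, an inhibitor of lipoprotein lipase, rose (3.19), and Fam107a, an actin regulator (-1.11), and Glul, glutamine synthetase (-0.76), fell. Pdk4, Lcn2, Cdkn1a and Angptl4, the largest increases of the list, also belong to the fasting, acute-phase, p53 or injury lists.

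Circadian clock genes follow the hour of the day, and the hour of death is not given, so its part cannot be told apart from that of the operation. Of 19, 7 were higher and 0 lower (median 0.20), against 31.9% higher, 14.1% lower and a median of 0.11 over all genes. The share higher was thus near that of all genes. Per1, a clock repressor that glucocorticoids also induce, had 16.6, 12.8 and 22.2 FPKM in sham day 1, against 2.61 to 7.54 FPKM (median 5.75) in later sham (log2 fold 1.51 ± 0.27, limma adjusted p = 0.00024), and the repressors Cry1 (1.41) and Cry2 (0.96) rose. Dbp, a clock output, had 65.7, 74.2 and 57.1 FPKM in sham day 1, 74.0, 6.29 and 55.9 in sham day 3 and 25.5, 29.5 and 44.6 in sham day 21, and Arntl, the core activator also called BMAL1, had 2.08, 1.78 and 1.91 FPKM in sham day 1, 1.31, 9.66 and 2.18 in sham day 3 and 4.68, 3.58 and 2.44 in sham day 21. In day 3 replicate 2 Cry1 stood at 5.00 FPKM, inside the day 1 range of 4.51 to 5.57 FPKM, with the other 5 later libraries at 1.5 FPKM or less. Day 3 replicate 2 was the lowest of all 9 for Dbp and the highest for Arntl, and neither gene passed (limma adjusted p = 0.12 and 0.16). Nr1d1, a clock repressor, did not pass either (log2 fold 0.12 ± 0.33). Its values were 33.8, 35.1 and 37.1 FPKM in sham day 1, 32.5, 9.25 and 32.3 in sham day 3 and 54.7, 47.6 and 43.7 in sham day 21, all 3 of day 21 above all of day 1. Without day 3 replicate 1, Dbp (1.35) and Arntl (-0.81) both passed, at limma adjusted p of 0.035 and 0.033. Without day 3 replicate 2 the list had 8 higher and 1 lower, Cry1 rose by 1.62, and Dbp (0.51), Arntl (-0.25) and Nr1d1 (-0.17, against 0.12 with it) did not pass (limma adjusted p = 0.15, 0.24 and 0.6). The clock motif CACGTG, an E-box, was found in 5 of 16 clock promoters (31.2%, those of Per1, Cry1, Tef, Bhlhe41 and Ciart) and in 11.3% of 11448 promoters.

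**Figure D4:**
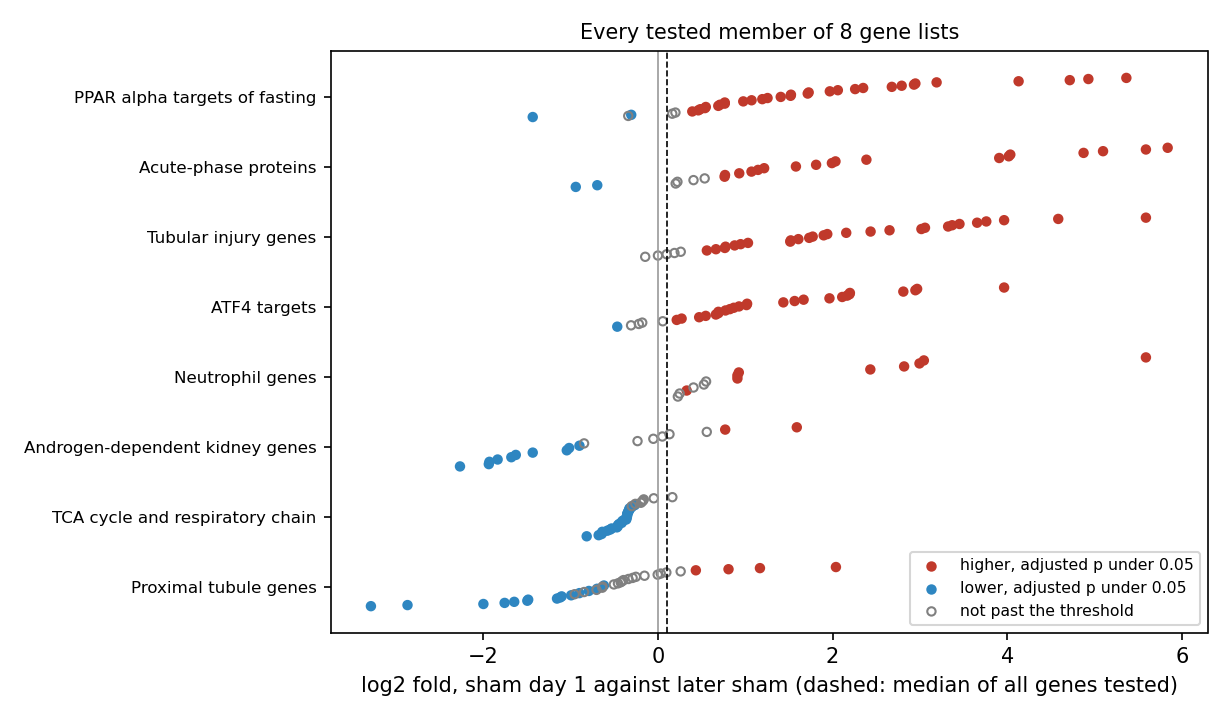
Log2 fold of sham day 1 against later sham for every tested member of 8 gene lists, filled where the limma adjusted p was under 0.05. The dashed line is the median of all genes at 0.11, and the lists range from PPAR alpha targets, with 31 of 36 higher, to proximal tubule genes, with 15 of 37 lower.

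Proximal tubule genes were lower in 15 and higher in 4 of 37 (median -0.63). Without day 1 replicate 1, 9 were lower, and in the fit on the 9 sham libraries alone 25. Slc34a1, the phosphate carrier, had 953, 1104 and 1097 FPKM in sham day 1, against 2677 to 3252 FPKM (median 2914) in later sham (log2 fold -1.49 ± 0.47, limma adjusted p = 0.016). That call was lost without day 1 replicate 1 (-1.42, adjusted p = 0.06) and after quantile normalization (-1.26, adjusted p = 0.069). Miox, an inositol oxygenase (-2.0), and Lrp2, the endocytic receptor megalin (-1.76), fell with Gatm and Slc7a13, whereas Pck1 and the endocytic adaptor Dab2 (0.81) rose. Cyp24a1 of vitamin D breakdown also rose (1.17), a call lost without day 1 replicate 1 or 3, day 3 replicate 2 or 3 or day 21 replicate 3 (0.93 to 1.10, limma adjusted p = 0.066 to 0.17), and against sham day 21 alone (0.67, limma adjusted p = 0.32) and in 5 other alternatives. Hnf4a, the regulator of proximal tubule identity, was at 212 ± 16.1 FPKM on day 1 and 279 ± 20.2 later and did not pass (log2 fold -0.39 ± 0.21, limma adjusted p = 0.15). Hnf4a passed after median-of-ratios scaling (-0.56), in the fit on the 9 sham libraries (-0.39) and with library weights (-0.41).

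Androgen-dependent kidney genes were lower in 10 and higher in 2 of 18 (median -0.96). The anion carrier Slc22a28 (-2.27), the dipeptidase Cndp2 (-1.94), Cyp2j13 (-1.93) and the polyamine enzyme Odc1 (-1.84) fell, and Cyp2d9 (1.59) and the organic anion pump Abcc3 (0.77) rose, the Abcc3 call being lost with a pseudocount of 5 (0.23, limma adjusted p = 0.062). Odc1 had 182, 191 and 157 FPKM in sham day 1, against 504 to 780.2 FPKM (median 635) in later sham. Kap had 26791, 18131 and 23770.2 FPKM, against 33366 to 51258 FPKM (median 40670.0), and did not pass (log2 fold -0.85 ± 0.38, limma adjusted p = 0.081), although its groups did not overlap. It passed after median-of-ratios scaling (-1.01), in the fit on the 9 sham libraries (-0.85) and with library weights (-0.76), each at a limma adjusted p under 0.05.

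Thick limb and distal tubule genes were lower in 12 and higher in 2 of 23 (median -0.47), and without day 1 replicate 1 in 7. The calcium buffer Pvalb (-2.06), the growth factor Egf (-1.47), the sodium-potassium-chloride carrier Slc12a1 (-1.25) and the claudin Cldn10 (-1.25) fell. The calcium channel Trpv5 rose (0.50), a call lost without day 1 replicate 1 or 3 (0.44 to 0.48, limma adjusted p = 0.068 to 0.088), and after quantile normalization (0.29, limma adjusted p = 0.16) and in 2 other alternatives. Umod was at 854 ± 51.5 FPKM in sham day 1 and 701 ± 133 FPKM in later sham and did not pass (limma adjusted p = 0.098). It did in TPM (0.37), after quantile normalization (0.41), with library weights (0.29), without day 3 replicate 2 (0.37) and against day 21 alone (0.48). Collecting duct genes had 5 lower and 2 higher of 19 (median -0.13), with 3 lower without day 1 replicate 1. Over all genes 14.1% were lower and 31.9% higher. The intercalated cell exchangers Slc4a1 (-1.49) and Slc26a4 (-1.01) fell and the water channel Aqp2 rose (0.83), as did the sodium channel subunit Scnn1a (0.34). The Aqp2 call was lost against sham day 3 alone (0.45, limma adjusted p = 0.19), and the Scnn1a call lost against sham day 3 alone (0.12, limma adjusted p = 0.4) and in 2 other alternatives.

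Among the lists of immune cells, that of neutrophils had the largest share of members higher. Neutrophil genes were higher in 9 and lower in 0 of 14 (median 0.91). S100a9, a calcium-binding protein of neutrophils, had 35.9, 8.33 and 28.2 FPKM in sham day 1, against 0.74 to 3.70 FPKM (median 1.70) in later sham (log2 fold 3.00 ± 0.45). Its partner S100a8 had 20.2, 4.90 and 17.5 FPKM, against 0.35 to 1.72 FPKM (median 0.92) (log2 fold 2.82 ± 0.40), and the chemokine Cxcl1, which tubule cells make too, rose (3.04). The granule enzymes Mpo and Elane were at or near 0, with a highest value of 0.07 FPKM. The summed level of the list was 138 to 309 FPKM on day 1 and 12.2 to 20.9 FPKM later, and Lcn2 alone made up most of it on day 1. The part of neutrophils in the result was not tested. Monocyte and macrophage genes had 4 higher and 1 lower of 22 (median 0.19), against 31.9% higher and 14.1% lower over all genes. The share higher was thus below that of all genes, and 17 members did not pass. Those higher were the lipopolysaccharide receptor Cd14 (3.54), the lysosomal Cd68 (1.98), the integrin Itgam (0.73) and the protease Ctss (0.68). The growth factor receptor Csf1r was lower (-1.17). The Itgam call was lost without day 1 replicate 1 (0.59, limma adjusted p = 0.087), and with a pseudocount of 5 (0.23, limma adjusted p = 0.19), and the Ctss call lost without day 1 replicate 1 (0.55, limma adjusted p = 0.13), and after quantile normalization (0.47, limma adjusted p = 0.14) and in 3 other alternatives. In the fit on the 9 sham libraries alone 10 members of the list were higher. Of 15 T cell and natural killer cell genes, 0 were higher and 0 lower by limma, 0 passed an unadjusted p of 0.05, and the list had a summed level of 10.1 to 11.8 FPKM on day 1 and 9.56 to 21.8 FPKM later. B cell and plasma cell genes had 4 lower and 1 higher of 6 (median -0.34), at summed levels of 3.5 to 3.75 FPKM on day 1 and 5.18 to 7.80 FPKM later, with the receptor chains Cd79a (-0.62) and Cd79b (-0.49) down.

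Other tissues in the sample were checked by their markers. Of 7 tested adipose genes, 5 were higher and 2 lower, with Cidec (2.68), Plin4 (1.70), Plin1 (1.47), Fabp4 (1.14) and Aqp7 (1.12) up and Car3 (-1.94) and Lpl (-1.46) down. The fat hormone genes Adipoq and Lep were at 0 in all 3 day 1 libraries and Lep in all 9, with at most 0.1 FPKM of Adipoq in later sham, and the list summed to 202 to 238 FPKM on day 1 and 359.8 to 538 FPKM later. Of adrenal gland, skeletal muscle and pancreas acinar lists, 1, 2 and 1 members were tested, and the member that passed was Cela1, an elastase, lower in sham day 1 (-2.18). Erythroid genes had 0 higher and 1 lower of 6 (median 0.01, -0.10 after median-of-ratios scaling), and the alpha-globin genes Hba-a1 (0.11) and Hba-a2 (-0.17), near-identical copies, did not pass.

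Levels in UIR day 1 kidneys, taken on the same day, are set beside those of genes that rose in sham day 1. Sham day 1 is also the control of UIR day 1, so values are given side by side with no test, for genes picked after their values were seen. For a first set of genes UIR day 1 was below sham day 1, and, except for C3, near later sham or below it. Slc38a3 had 54.1, 81.9 and 61.4 FPKM in sham day 1 and 6.77 to 22.2 FPKM (median 13.5) in later sham, and 1.51, 0.98 and 0.92 FPKM in UIR day 1. C3 had 10.0, 7.07 and 8.69 FPKM in UIR day 1, all above its 2.74 to 6.56 FPKM (median 3.96) in later sham. In sham day 1 C3 had 90.8, 83.3 and 66.2 FPKM. Saa1, at 29.8, 9.43 and 13.5 FPKM in sham day 1, had 0.23, 0 and 0.11 FPKM in UIR day 1. Pck1 had 2441, 2029 and 2636 FPKM in sham day 1 and 486, 390.1 and 189 FPKM in UIR day 1. The mean of UIR day 1 was above that of sham day 1 in 0 of 28 fatty acid oxidation genes and 2 of 36 PPAR alpha targets. Other lists were low as well, with 2 of 31 amino acid catabolism genes and 3 of 18 androgen-dependent genes. The share over all genes was not counted, so these counts have no background beside them.

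For a second set the values of sham day 1 and UIR day 1 overlapped. Pdk4 had 262, 171 and 291 FPKM in sham day 1 and 264, 209 and 202 FPKM in UIR day 1, and Plin2 had 1614, 859 and 1499.9 FPKM in sham day 1 and 1449, 1275 and 1387 FPKM in UIR day 1. Gdf15 had 97.1, 127 and 135 FPKM in sham day 1 and 229, 104 and 146 FPKM in UIR day 1. For other genes UIR day 1 was higher still. Lcn2 had 188, 102 and 216 FPKM in sham day 1 and 2357, 1486 and 3001 FPKM in UIR day 1, and Krt20 had 19.5, 5.96 and 27.4 FPKM in sham day 1 and 1113, 1374 and 993 FPKM in UIR day 1. Havcr1 had 47.3, 18.5 and 26.8 FPKM in sham day 1 and 71.5, 106 and 307 FPKM in UIR day 1, again without overlap. The UIR mean was above the sham day 1 mean in 32 of 32 tubular injury genes, 24 of 24 immediate early genes and 22 of 23 STAT3 feedback genes. It was also above in 39 of 40 cytosolic ribosomal proteins and 20 of 25 ribosome biogenesis genes, so a high count was not particular to the former lists. Here too the share over all genes was not counted. Fgg, Fga and Lrg1 lay between the sham groups without overlap, Fgg at 487, 199 and 297 FPKM in sham day 1, 3.03 to 6.93 FPKM (median 4.49) in later sham, and 43.3, 46.5 and 179.9 FPKM in UIR day 1. The other fibrinogen chain, Fgb, had 9.68, 14.7 and 88.6 FPKM in UIR day 1, which overlapped its 119, 30.9 and 52.8 FPKM in sham day 1. Hspa1a, which did not pass in sham day 1, had 10.8, 9.61 and 17.3 FPKM there and 1256, 1248 and 344 FPKM in UIR day 1.

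**Figure D5:**
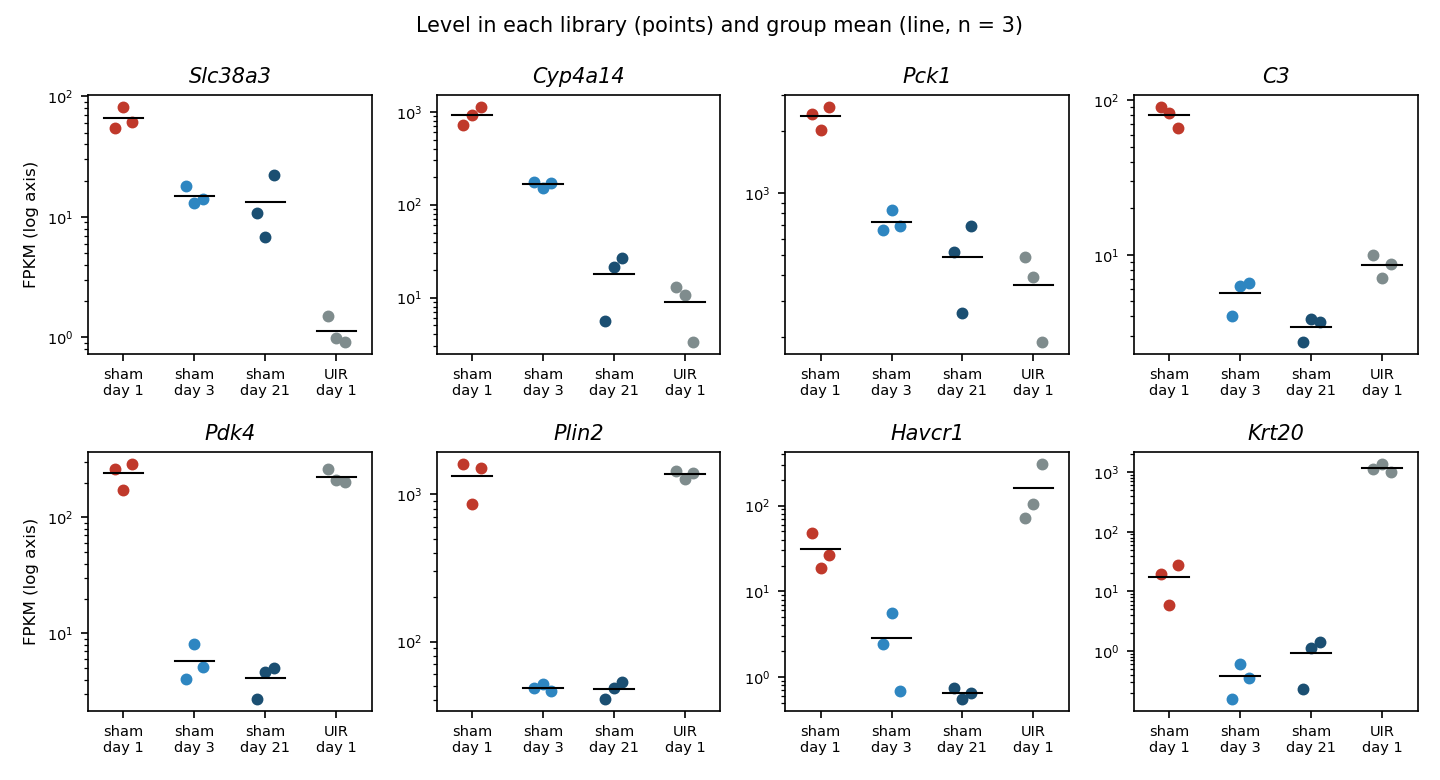
FPKM on a log axis in each library of sham day 1, sham day 3, sham day 21 and UIR day 1 for 8 genes, with the group mean as a line (n = 3). Slc38a3, Cyp4a14, Pck1 and C3 are high in sham day 1 and low in UIR day 1, Pdk4 and Plin2 are at like levels in both, and Havcr1 and Krt20 are highest in UIR day 1.

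Sham day 21 and sham day 3, the parts of later sham, differed in 5 genes by limma, named after their values were seen. Cyp4a14 had 5.58, 21.4 and 26.7 FPKM in sham day 21 and 176, 153 and 173 FPKM in sham day 3 (log2 fold -3.39, limma adjusted p = 0.02). Its day 1 values were 713, 922 and 1132 FPKM, so this PPAR alpha target stood in order from day 1 to day 21 with no overlap between days. The keratin Krt7 (-0.73) and the small nucleolar RNA Snord34 (-2.23) were also lower in sham day 21, and Usp6nl, a GTPase regulator (0.66), and Fchsd1, a membrane-bending protein (0.80), were higher. The count was 0 without day 3 replicate 1 or 2 and 419 without day 3 replicate 3. Sham day 1 against sham day 21 gave Cyp4a14 a log2 fold of 5.83, and against sham day 3 one of 2.43.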

How the data were processed

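The values are FPKM per gene that the authors deposited in 1 table, with 3 libraries in each of 6 groups. The submitters' processing notes name HISAT2 2.0.4, Bowtie2 2.2.5, RSEM 1.2.12 and mm9, without their roles, and strand and read depth are not given in the sources used here. A group's libraries are biological replicates, per the labels. From the table, gene IDs gave back 27 symbols that were stored as dates. Log2(FPKM + 1) was fitted for all 18 libraries with group means in limma 3.58.1 (R 4.3.3) with a variance trend, and sham day 1 was set against the mean of sham days 3 and 21. A log2 fold on this scale understates changes of genes with low values. P-values were adjusted by Benjamini-Hochberg over 14716 genes with FPKM of at least 1 in at least 3 libraries, at a threshold of 0.05. The fit was also run on simulated data with few genes changed and the sham means otherwise equal. In the real data 46.1% of genes passed, so that run does not measure the error of these calls. Library summaries were compared by two-sided exact permutation (SciPy 1.17.1). Alternatives covered the pseudocount, the filter, scaling, the libraries fitted, weights, the variance trend, the replicate block, each later day alone and each library left out.

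Named genes were the 12 largest increases and 12 largest decreases among those that passed against both later days together and each alone, had no overlap and a mean of 5 FPKM or more, up to 4 per direction in each of 46 gene lists, and 22 fixed genes, and some of these genes are not reported here. The genes, lists and rules were chosen with earlier results of these data known. The lists hold 926 genes of the table, 864 of them tested, and some genes stand in several lists.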

Additional observations from a re-analysis of the deposited data

Results flagged for a closer look

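In the 6 later sham libraries 221 genes were examined for 1 library far from the other 5, and 21 had one. Such a gap arises by chance in about 1 in 20 groups. Day 3 replicate 2 held 11 of the 21. Among genes of the endoplasmic reticulum it was high in Calr (1007 FPKM, others 444 to 587), Pdia3 (345 FPKM, others 209.6 to 235), Hsp90b1 (345 FPKM, others 151 to 182) and Derl3 (2.39 FPKM, others 0.34 to 0.72). Among clock genes it was low in Nr1d1 (9.25 FPKM, others 32.3 to 54.7) and high in Cry1 (5.00 FPKM, others 0.53 to 1.5). It was also high in Myc (8.42 FPKM, others 1.01 to 2.40) and Apoa1 (1.18 FPKM, others 0.24 to 0.53), and low in Gas2 (134 FPKM, others 172 to 200.3), Fads2 (65.6 FPKM, others 89.6 to 104) and Gpam (6.20 FPKM, others 13.4 to 20.1).

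Day 21 replicate 2 was low in Haao (108 FPKM, others 145 to 165) and Hpd (12.9 FPKM, others 24.4 to 35.1) and high in Fbp2 (14.7 FPKM, others 8.30 to 9.24) and the glucose carrier Slc5a1 (25.7 FPKM, others 15.8 to 17.7). Day 3 replicate 3 was high in the interferon-induced Gbp2 (8.63 FPKM, others 3.09 to 3.92) and Cxcl10 (7.19 FPKM, others 2.30 to 3.54) and low in Csf1r (7.36 FPKM, others 9.94 to 11.8). Day 3 replicate 1 was the library with Saa1 above 0 (0.11 FPKM) and was low in Apcs (0.39 FPKM, others 1.27 to 1.74). Day 21 replicate 1 was high in Itgam (0.55 FPKM, others 0.28 to 0.36). For Fbp2, Cry1, Derl3 and Gbp2 these values lay inside the range of the 3 sham day 1 libraries.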

How the results depend on the processing

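The count of 6783 genes in sham day 1 against later sham ran from 5108 (FPKM of 5 or more) to 8651 (library weights) over the alternatives. The lowest count came from fewer genes tested, 9044 against 14716, so it does not show a smaller share called. On leaving out 1 library the count ran from 5394 to 6679. Taking each replicate number as a block gave 6667 genes, and the block changed none of these counts by 1.5 times. Correlations of deviations from group means ran from -0.032 to 0.082 between same-numbered sham libraries and from -0.112 to 0.15 between the others. With group means of 3 libraries this cannot decide whether the numbers stand for a pairing. Sham day 21 against sham day 3, with 5 genes, gave 12 with a pseudocount of 0.1, 2 with a pseudocount of 5, 3 at FPKM of 5 or more, 8 after median-of-ratios scaling, 11 after quantile normalization, 2 in the fit on the 9 sham libraries, 1756 with library weights, and from 0 to 419 on leaving out 1 library. The cause was not tested. The difference in genes detected (391.8) ran from 364.3 to 417.7 and that in the share of the 10 most abundant genes (-2.30 percentage points) from -2.54 to -1.97 on leaving out 1 library, and without a day 1 library the smallest exact permutation p possible was 0.071.

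Of 221 named genes 212 passed, 167 of them in each of the 22 or 23 alternatives run for the gene, and 45 missed the threshold in at least 1. No called gene changed direction, while Nr1d1, Tsc22d3 and Ppargc1a, which did not pass, changed sign between alternatives. With library weights 23 of the Proximal tubule genes and 10 of the Collecting duct genes were lower, and 14 of the Hypoxia-induced genes, 13 of the Endothelial genes and 16 of the Cell cycle genes higher. Slc34a1 missed it after quantile normalization and without day 1 replicate 1. Limits are the unknown depth, the unknown counting of copies, 3 mice a group and the absence of unoperated mice among the samples analysed here.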

Other observations

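Most genes of ribosome assembly in the nucleolus were higher. Of 25 tested ribosome biogenesis genes, 22 were higher and 0 lower in sham day 1 (median log2 fold 0.53), led by the helicase Ddx21 (0.86), the nucleolar GTPase Gnl3 (0.84) and the rRNA processing factors Pes1 (0.76) and Mybbp1a (0.73). Ddx21 had 20.6, 21.0 and 21.2 FPKM in sham day 1, against 10.4 to 12.3 FPKM (median 10.9) in later sham. After median-of-ratios scaling 19 were higher. Of 40 cytosolic ribosomal proteins, 2 were higher and 0 lower (median 0.03), against 0 higher and 1 lower after median-of-ratios scaling (median -0.13) and 9 higher and 0 lower after quantile normalization (median 0.17). Those called, Rpl10a (0.25) and Rps9 (0.25), had small folds, the Rpl10a call being lost without day 1 replicate 1 or 3 (0.22 to 0.24, limma adjusted p = 0.054 to 0.075), and after median-of-ratios scaling (0.08, limma adjusted p = 0.47) and in 2 other alternatives, and the Rps9 call lost without day 1 replicate 1 or 3, day 3 replicate 3 or day 21 replicate 1 (0.21 to 0.25, limma adjusted p = 0.055 to 0.12), and after median-of-ratios scaling (0.08, limma adjusted p = 0.51) and in 1 other alternative. Of both cold-inducible RNA-binding proteins tested, Rbm3 was higher (0.99).

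Counts for podocyte, endothelial and matrix genes stand beside the 31.9% of all genes tested that were higher. Podocyte genes had 7 higher and 0 lower of 15 (median 0.59; 5 higher and 2 lower after quantile normalization), with the transcription factor Wt1 (0.80) among them. Endothelial genes had 7 higher and 0 lower of 19 (median 0.36), with the leukocyte adhesion molecule Icam1 at 60.1, 42.4 and 47.6 FPKM in sham day 1, against 7.35 to 10.0 FPKM (median 8.78) in later sham (log2 fold 2.37 ± 0.14). The nitric oxide synthase Nos3 (0.89) and the tight junction protein Cldn5 (0.82) followed with smaller folds. Matrix and myofibroblast genes had 13 higher and 2 lower of 34 (median 0.39; 12 higher and 6 lower after median-of-ratios scaling), with the protease inhibitor Timp1 (1.90) up and the collagen Col15a1 (-0.95) down.

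Interferon-stimulated genes had 14 higher and 1 lower of 28 (median 0.42), but 6 higher after quantile normalization. The RNA sensor Ddx58 (0.94) and the antiviral Oasl1 (0.83) rose. MHC class II presentation had 1 higher and 0 lower of 9 (0 and 1 after median-of-ratios scaling), and complement genes 4 higher and 2 lower of 16 (2 and 2 after that scaling), with the receptor C5ar1 up (1.01) and the inhibitor Cd55 down (-0.61) beside C3 and Cfb. In neither of these lists was the share higher above the 31.9% of all genes.

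Cell cycle genes had 10 higher and 2 lower of 36 (median 0.10), and 4 higher and 7 lower after quantile normalization. All genes had 31.9% higher, 14.1% lower and a median of 0.11, so the share higher was near that of all genes. The replication licensing factor Cdt1 (1.01) and the sliding clamp Pcna (0.57) were higher. Mki67, a marker of dividing cells, had 0.25, 0.14 and 0.27 FPKM in sham day 1, against 0.29 to 0.60 FPKM (median 0.35) in later sham, and did not pass (limma adjusted p = 0.14). It passed as lower with a pseudocount of 0.1 (-0.60, limma adjusted p = 0.028) and after quantile normalization (-0.31, limma adjusted p = 0.028).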
